A study of Rattus norvegicus with 4 samples.

Results

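The genes described here are 10 effectors of the ATF4 and CHOP stress response, namely Atf4, Ddit3 (which encodes CHOP), Atf3, Cebpb, Trib3, Ppp1r15a, Sesn2, Asns, Chac1 and Nupr1. They were chosen by name, and every probe set that the array's gene table pairs with one of these symbols was used. All 10 were found, at 13 of 31042 probe sets and 10 of 14217 genes. RNA came from ventricular cardiomyocytes of Sprague-Dawley rats aged 1 to 2 days. The cells were infected in culture with a virus for atrogin-1 together with GFP (Ad-atrogin-1, 2 arrays) or with a control virus for GFP (Ad-GFP, 2 arrays), and were kept without serum for 24 hours. Both groups therefore carry adenovirus and GFP, and they differ by the atrogin-1 insert, a muscle ubiquitin ligase made from a vector and not only from the cells' own gene. Each array is 1 sample on an Affymetrix rat genome array, and the labels call the samples of a group biological replicates.

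ATF4 and CHOP are transcription factors of the integrated stress response. When unfolded proteins build up in the endoplasmic reticulum (ER), or amino acids run short, kinases such as PERK phosphorylate the translation factor eIF2alpha. Most protein synthesis then falls while the ATF4 messenger is translated more, and ATF4, paired with C/EBP proteins, raises genes of amino acid supply, feedback genes and CHOP, which in prolonged stress is linked to cell death, also in heart muscle. The ER chaperones are raised mainly by the other branches of the unfolded protein response, through ATF6 and XBP1. An array measures messengers and not the amount or activity of ATF4 protein, which is set largely by translation.

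None of the 10 genes changed in Ad-atrogin-1 cardiomyocytes at an adjusted p under 0.05 and 2-fold. Across all genes these thresholds called 0.457% higher and 0.0563% lower. With no threshold on fold, 0.471% of all genes passed upward, and again none of the members. Ddit3 came closest, 1.94-fold higher, and Asns, the asparagine synthetase gene, was 1.63-fold higher. These 2 were also the members with an unadjusted p under 0.05 by limma, the moderated test used throughout, against 6.83% of all genes in the upward direction. None of the members had such a p in the downward direction, against 6.52% of all genes. A plain test of the means with equal variance, run because the methods name no test for the arrays, gave an unadjusted p under 0.05 for 1 member, Ddit3 (0.0151), and for none after adjustment. The other 8 genes had changes of 0.731-fold to 1.30-fold with 95% intervals that included no change.

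ATF4 and its partners act on DNA through short motifs, and the bases just before the start sites of the members are shown because the members differed in which motifs they held. The 250 bases before the annotated start were searched on both strands in a table of promoters from RefSeq (rat build GRCr8). Of the 10 genes, 9 were matched in that table, and Atf3 was not analysed here. The core of the C/EBP-ATF response element (CARE), TGATGNAA, was found before Trib3, Chac1 and Nupr1, against 3.40% of 33469 promoters of 27457 genes. The palindromic cyclic AMP response element, TGACGTCA, to which ATF family proteins bind, was found before Ppp1r15a, against 1.59% of promoters. The element of ATF6 and XBP1 target genes is the ER stress response element (CCAAT and, after 9 bases of any kind, CCACG). No exact match to it stood before any of the 9 members. It stood in 0.0657% of all promoters and before 7 of 17 chaperone genes described below. Members and chaperones were counted as genes, while the shares are of promoters, of which a gene can have several. Only exact matches were counted for every motif. On the other strand of the Ddit3 window below, CCAAT is followed after 9 bases by GCACG, which differs from the second part of the element in its first letter only. The CCAAT box (CCAAT), which is also the first part of that element, stood before Ddit3, Chac1 and Sesn2, and before 34.0% of all promoters. Capitals mark the matched letters below, which read as the reverse complement of the motif for Trib3, Chac1, Nupr1 and Ddit3, where the match lies on the other strand. The first of these windows ends at the start site and the others end upstream of it.
Trib3, chr3:161275534-161275593, minus strand: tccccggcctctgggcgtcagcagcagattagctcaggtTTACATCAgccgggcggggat
Chac1, chr3:126795938-126795997, plus strand: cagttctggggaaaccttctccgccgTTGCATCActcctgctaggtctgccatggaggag
Nupr1, chr1:190645923-190645982, minus strand: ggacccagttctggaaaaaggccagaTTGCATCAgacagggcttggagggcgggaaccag
Ppp1r15a, chr1:105139629-105139688, minus strand: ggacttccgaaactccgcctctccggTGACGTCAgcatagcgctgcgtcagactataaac
Ddit3, chr7:65001571-65001670, plus strand: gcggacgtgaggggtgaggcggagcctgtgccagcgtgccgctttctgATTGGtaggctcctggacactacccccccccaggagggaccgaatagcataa

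A match to these letters is a description of the sequence and not a measured binding site, and elements outside the window were not searched. The match before Trib3 lies 21 to 14 bases before the start, that before Nupr1 55 to 48, that before Ppp1r15a 66 to 59 and that before Chac1 167 to 160.

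All values below are log2 signals made by robust multi-array average (RMA), so a difference of 1 is 2-fold. The array medians lay between 5.51 and 5.52. Every member was above the upper quartile of each array (7.27 to 7.32), with member signals of 7.69 to 11.96, so none was measured near the dim end of the scale. Where a gene has several probe sets, the brightest stands for it, and p was adjusted over 14217 genes. The labels were checked on Fbxo32, the atrogin-1 gene, which had 13.55 and 13.47 on the Ad-atrogin-1 arrays, against 5.24 and 5.04 on the Ad-GFP arrays. With 2 arrays a group, an exact permutation test of 1 gene cannot give a two-sided p below 0.333, so single genes were judged by limma, which shares the variance across probe sets. In RNA from a mixed culture, fewer cells of a type and less RNA per cell cannot be told apart.

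Among the transcription factors, Ddit3 was the member with the largest change. CHOP is a C/EBP family protein that pairs with other C/EBP and ATF proteins. Ddit3 had log2 signals of 9.58 and 9.65 on the Ad-atrogin-1 arrays, against 8.55 and 8.77 on the Ad-GFP arrays. Both Ad-atrogin-1 arrays were high and the groups were far apart compared with the gap inside each, 0.07 in Ad-atrogin-1 and 0.23 in Ad-GFP. The log2 fold change was 0.96 (standard error 0.13, 95% interval 0.63 to 1.29, n = 2 arrays per group), which is 1.94-fold with an interval of 1.55-fold to 2.44-fold. The adjusted p was 0.0570 (limma), so Ddit3 missed both the threshold on p and the one on fold. With each array centred on its median the adjusted p was 0.0474, after a further quantile normalization 0.0490, but the change stayed under 2-fold. Of all genes, 1.43% had a larger change in either direction.

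Atf4 itself, the central activator of the pathway, differed less. Its log2 signals were 11.76 and 11.96 on the Ad-atrogin-1 arrays, against 11.42 and 11.64 on the Ad-GFP arrays. The groups did not overlap, but the higher Ad-GFP array lay only a little under the lower Ad-atrogin-1 array. The log2 fold change was 0.33 (standard error 0.14, 95% interval -0.02 to 0.68) with an adjusted p of 0.408 (limma), and 0.22 to 0.44 with 1 array left out.

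Atf3, a stress-induced factor of the same family that often represses its targets, had log2 signals of 7.99 and 8.27 on the Ad-atrogin-1 arrays, against 7.72 and 8.24 on the Ad-GFP arrays. The groups overlapped, since replicate 2 of Ad-GFP was nearly as high as replicate 2 of Ad-atrogin-1. The difference for Atf3 was 0.15 (standard error 0.21, 95% interval -0.36 to 0.67), and -0.10 without replicate 1 of Ad-GFP.

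Cebpb, which encodes C/EBPbeta, a partner of ATF4 that is also induced by inflammatory signals, was the member with the lowest fold change. It had log2 signals of 9.25 and 9.15 on the Ad-atrogin-1 arrays, against 9.37 and 9.94 on the Ad-GFP arrays. Both Ad-atrogin-1 arrays were below both Ad-GFP arrays, although replicate 1 of Ad-GFP lay close to them and replicate 2 well above. The log2 fold change was -0.45 (standard error 0.20, 95% interval -0.96 to 0.06), 1.37-fold lower, with an adjusted p of 0.428 (limma). Without replicate 2 of Ad-GFP it was -0.17, and without replicate 1 it was -0.73.

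**Figure D1:**
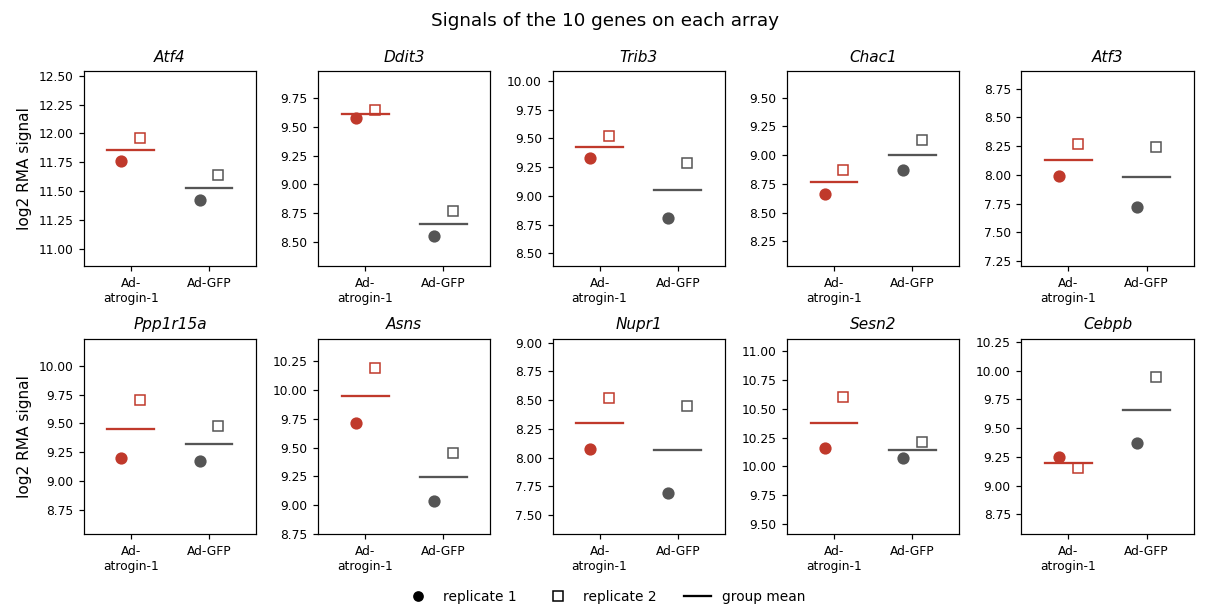
Log2 RMA signal (vertical axis) of each of the 10 genes on the Ad-atrogin-1 arrays (red, left) and the Ad-GFP arrays (grey, right), with filled circles for replicate 1, open squares for replicate 2 and lines for group means; every panel spans the same range of log2 units. The Ddit3 groups are the furthest apart for their spread, 9.58 and 9.65 against 8.55 and 8.77, while those of Atf3, Ppp1r15a, Nupr1, Sesn2 and Chac1 overlap.

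Of the feedback genes, none passed the test. Trib3 encodes a pseudokinase that is induced by ATF4 and CHOP and restrains them, and that also binds Akt. Its brightest probe set had log2 signals of 9.33 and 9.52 on the Ad-atrogin-1 arrays, against 8.81 and 9.29 on the Ad-GFP arrays. The groups were only just apart, and the log2 fold change was 0.38 (standard error 0.19, 95% interval -0.10 to 0.85). It was 0.13 without replicate 1 of Ad-GFP and 0.62 without replicate 2. The other 2 Trib3 probe sets had log2 fold changes of 0.40 and 0.38, close to the first. Their p-values differed with the spread between arrays. The probe set with the tightest signals, 8.69 and 8.72 in Ad-atrogin-1 against 8.20 and 8.46 in Ad-GFP, had an unadjusted p of 0.0337 and an adjusted p of 0.398 (limma, over all probe sets).

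Ppp1r15a encodes GADD34, the stress-induced subunit of the phosphatase that removes the phosphate from eIF2alpha. It had log2 signals of 9.20 and 9.70 on the Ad-atrogin-1 arrays, against 9.17 and 9.48 on the Ad-GFP arrays. The groups overlapped, and the log2 fold change was 0.12 (standard error 0.21, 95% interval -0.39 to 0.64). On the linear scale the interval ran from 0.761-fold to 1.56-fold, so it held no change of 2-fold in either direction. Its sign rested on single arrays, with -0.03 without replicate 1 of Ad-GFP and -0.13 without replicate 2 of Ad-atrogin-1.

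Sesn2 encodes sestrin 2, a stress protein that restrains the growth kinase mTORC1. Its brighter probe set had log2 signals of 10.16 and 10.60 on the Ad-atrogin-1 arrays, against 10.07 and 10.21 on the Ad-GFP arrays, and the groups overlapped. The Sesn2 log2 fold change was 0.25 (standard error 0.18, 95% interval -0.19 to 0.68), but 0.03 without replicate 2 of Ad-atrogin-1 and 0.46 without replicate 1. The dimmer Sesn2 probe set, with 5.54 and 5.89 in Ad-atrogin-1 against 5.37 and 5.44 in Ad-GFP, had 0.31 (standard error 0.15) with groups that did not overlap.

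The 2 metabolic effectors lay on opposite sides. Asns makes asparagine and is a classic gene of the amino acid response. It had log2 signals of 9.71 and 10.19 on the Ad-atrogin-1 arrays, against 9.04 and 9.45 on the Ad-GFP arrays. Both Ad-atrogin-1 arrays were above both Ad-GFP arrays, but the gap within each group, 0.48 and 0.41, was a large part of the difference. The log2 fold change was 0.70 (standard error 0.22, 95% interval 0.16 to 1.24), with an unadjusted p of 0.0200 and an adjusted p of 0.268 (limma).

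Chac1 encodes an enzyme that degrades glutathione and is a target of ATF4. It had log2 signals of 8.66 and 8.87 on the Ad-atrogin-1 arrays, against 8.87 and 9.13 on the Ad-GFP arrays. The groups met at 8.87, and the log2 fold change was -0.23 (standard error 0.15, 95% interval -0.61 to 0.14). Without replicate 1 of Ad-GFP it was -0.37 and without replicate 2 it was -0.10, and without replicate 1 of Ad-atrogin-1 it was -0.13. The upper bound of the interval is 1.10-fold, so a rise of Chac1 of the size measured for Ddit3 or Asns lay outside it. Chac1 and Cebpb were the 2 members with a mean below that of Ad-GFP. The other 8 members had a higher mean, as had 49.2% of all genes.

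Nupr1, a small chromatin-associated stress protein that is induced with CHOP, had log2 signals of 8.08 and 8.52 on the Ad-atrogin-1 arrays, against 7.69 and 8.45 on the Ad-GFP arrays. The groups overlapped, and the gap between the Ad-GFP arrays, 0.76, was the widest of any member. The difference for Nupr1 was 0.22 (standard error 0.28, 95% interval -0.48 to 0.93), the least precise of the 10, and -0.16 without replicate 1 of Ad-GFP.

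**Figure D2:**
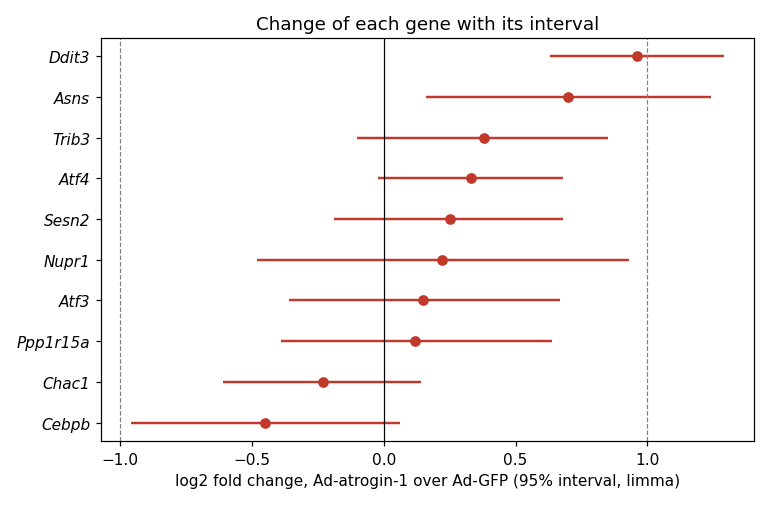
Change of each gene on the log2 scale (horizontal axis, positive where Ad-atrogin-1 is higher than Ad-GFP) with its 95% interval from limma as a bar; dashed lines mark 2-fold in each direction. The intervals of Ddit3 (0.63 to 1.29) and Asns (0.16 to 1.24) lie above 0, and the other 8 include it.

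Taken as counts, 4 of the 10 genes (Ddit3, Asns, Atf4 and Trib3) had both Ad-atrogin-1 signals over the higher Ad-GFP signal, against 20.7% of all genes. Cebpb alone had both under the lower Ad-GFP signal, against 22.3% of all genes, and the other 5 genes overlapped. The median log2 fold change of the members was 0.24, beside a median of -0.003 over all genes. These counts and medians describe the 10 genes and were not tested.

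The gap between the replicates was wide for these genes and ran the same way in both groups. Replicate 2 had the higher signal in Ad-atrogin-1 and also in Ad-GFP for 9 of the 10 members, against 25.3% of all genes. Cebpb was the exception, with -0.09 in Ad-atrogin-1 and 0.57 in Ad-GFP for replicate 2 minus replicate 1. The median gap of the members was 0.25 in Ad-atrogin-1 and 0.36 in Ad-GFP, where the median absolute gap over all genes was 0.15 in each group. For Ddit3, Asns and Atf4 the difference between the groups was larger than the larger of the 2 gaps, and for the other 7 members it was smaller. Another 38 ATF4 target genes, described below, showed the same order for 28 of 38. Other lists described below also showed it in part. The counts were 12 of 20 for ATF6 and XBP1 chaperones and 6 of 9 for genes linked to p53 and FoxO. They were 5 of 13 for CHOP targets and partners in cell death, 9 of 25 for bZIP partners and 5 of 18 for the steps above ATF4. The 7 measured endothelial marker genes also had the higher signal in replicate 2 of both groups, 7 of 7, with summed linear signals of 531 and 947 in Ad-atrogin-1 and 527 and 721 in Ad-GFP. Of 10 cardiomyocyte markers, none did so, and none of 9 macrophage and leukocyte markers. Fibroblast markers did so for 3 of 8, and smooth muscle and pericyte markers for 3 of 8. Replicate 2 was lower in both groups for 3 cardiomyocyte, 4 macrophage and leukocyte and 1 smooth muscle and pericyte marker, beside 26.8% of all genes. The summed linear signals of the macrophage and leukocyte markers were 596 and 264 in Ad-atrogin-1 and 376 and 402 in Ad-GFP. Those of the cardiomyocyte markers were 46773 and 36909 in Ad-atrogin-1 and 36623 and 39621 in Ad-GFP. The part of these cell types in the gap was not tested.

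**Figure D3:**
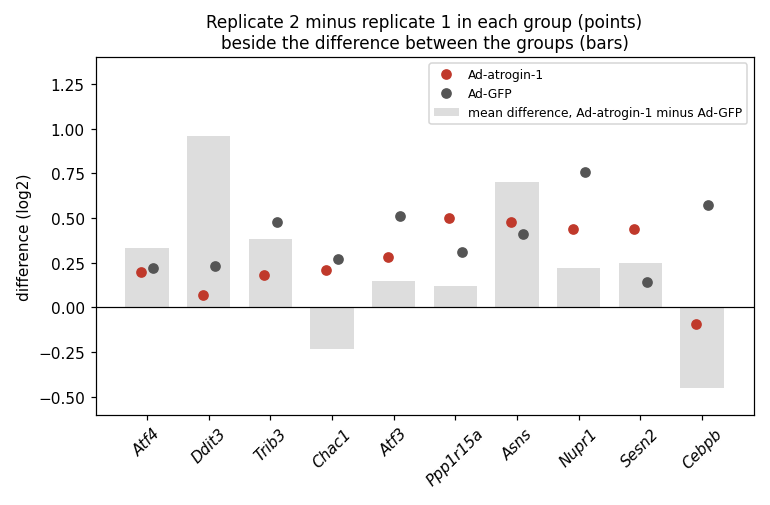
Replicate 2 minus replicate 1 in log2 units for each gene in Ad-atrogin-1 (red points) and Ad-GFP (grey points), with bars for the difference of the group means, Ad-atrogin-1 minus Ad-GFP. All points lie above 0 except the Ad-atrogin-1 point of Cebpb at -0.09, and the bar exceeds both points for Ddit3, Asns and Atf4.

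Of the steps above ATF4, the messengers of 2 of 18 genes rose, and none fell, beside 0.457% and 0.0563% of all genes. Eif2ak3, which encodes PERK, the eIF2alpha kinase of the ER, had log2 signals of 7.41 and 7.20 in Ad-atrogin-1, against 6.03 and 6.15 in Ad-GFP, 2.32-fold higher (log2 fold change 1.21, adjusted p = 0.0389, limma). Dnajc3, which encodes the ER cochaperone p58IPK and restrains PERK in this pathway, rose 6.44-fold (2.69, standard error 0.15). The genes of the other eIF2alpha kinases, Eif2ak1, Eif2ak2 and Eif2ak4, had log2 fold changes of -0.07, -0.01 and -0.26 and did not pass the test. They were added after their values had been seen. The median of the 18 genes was 0.18. Both Ad-atrogin-1 arrays were above both Ad-GFP arrays for 9 of the 18 and below for 1, beside 20.7% and 22.3% of all genes. By limma 4 had an unadjusted p under 0.05, all upward, beside 6.83% of all genes.

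Beside 0.457% of all genes, 1 of another 38 measured ATF4 target genes rose. This was Herpud1, an ER degradation gene that ATF6 and XBP1 also raise, which was 3.41-fold higher (1.77 on the log2 scale, standard error 0.14), with an adjusted p of 0.0179 by limma. Of 41 listed targets, those that no probe set measured alone were left out. Pycr1, which the study reports as up-regulated, was among those left out. The median of the 38 measured genes was 0.28, close to the 0.24 of the members. The groups did not overlap for 22 of 38 genes that were higher and 1 that was lower in Ad-atrogin-1, beside 20.7% and 22.3% of all genes. An unadjusted p under 0.05 was found for 11, all upward, beside 6.83% of all genes. Gdf15, a secreted stress cytokine, and Phgdh, the first enzyme of serine synthesis, were next in size with 1.35 (standard error 0.23, adjusted p = 0.0933) and 0.90 (0.18, 0.124). The amino acid transporter genes Slc7a5 and Slc3a2 and the stress gene Ddit4, also targets of ATF4, had -0.03, -0.19 and -0.02. The other transporter genes on the list went both ways, and none passed the test. Slc7a11, Slc7a1 and Slc6a9 had 0.43, 0.38 and 0.23, and Slc38a2 and Slc1a5 had -0.06 and -0.03. All the measured genes named here but Herpud1 were picked after their values had been seen.

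The bZIP genes, whose products can pair with ATF4, CHOP, ATF3 or C/EBPbeta, gave no calls. By limma none of 25 passed the test in either direction, 2 had an unadjusted p under 0.05 upward and 5 downward (6.83% and 6.52% of all genes), and the median was -0.10. Both Ad-atrogin-1 arrays were below both Ad-GFP arrays for 10 of the 25 genes and above for 3, beside 22.3% and 20.7% of all genes. Cebpd, a relative of Cebpb that inflammatory signals also induce, had log2 signals of 8.95 and 8.73 in Ad-atrogin-1, against 9.53 and 9.65 in Ad-GFP. Its difference was -0.75 (standard error 0.14), with an adjusted p of 0.0991 by limma. The AP-1 gene Junb had -0.69 (standard error 0.12, adjusted p = 0.0923), and both genes were picked out after their values had been seen. The brightest of the list, Nfe2l2 and Jund, had -0.03 and -0.02.

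Genes listed as targets or partners of CHOP in cell death gave 1 rise among 13, beside 0.457% of all genes. The list was not split by the direction in which CHOP acts. The gene that rose was Dnajb9 (log2 fold change 1.69, adjusted p = 0.0351, limma), an ER cochaperone gene that XBP1 also raises. Both Ad-atrogin-1 arrays were above both Ad-GFP arrays for 6 of the 13 and below for 2, beside 20.7% and 22.3% of all genes. Among the 6 were Bcl2 (0.22) and Car6 (0.31). Car6 was at 2.95 to 3.48 on the 4 arrays, under the lower quartile of each array (3.88 to 3.94). By limma 2 had an unadjusted p under 0.05, both upward, beside 6.83% of all genes. Bbc3 and Bcl2l11, death genes of the BCL2 family, had -0.15 and -0.21 (standard errors 0.14 and 0.13), and Ero1a, an ER oxidase gene, had 0.29 (0.15). The caspase gene Casp4 and the stress gene Gadd45g had 0.88 and 0.47 (0.32 and 0.22). All of these genes but Dnajb9 were named after their values had been seen. None of 9 genes linked to p53, FoxO and the sestrins passed the test. By limma 1 had an unadjusted p under 0.05, upward, beside 6.83% of all genes. The brightest, Ccng1 and Gadd45a, had 0.02 and 0.07. The median of that list was -0.02.

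The chaperone branch stood at another level of change in the same arrays. Of 20 genes that ATF6 and XBP1 raise, 17 rose, beside 0.457% of all genes. With no overlap of the groups, 20 of 20 were higher, beside 20.7% of all genes. The median log2 fold change was 1.73, beside 0.24 for the 10 stress effectors. The largest were Sdf2l1 (3.76), Creld2 (3.38), Pdia4 (3.06) and Dnajc3. The smallest, Canx, had 0.85 (standard error 0.16), a value between those of Asns and Ddit3. Over all 113 measured companion genes 18 rose and none fell, beside 0.457% and 0.0563% of all genes. Eif2ak3 was the 1 gene among the 18 that is not on the chaperone list. With any 1 of the 4 arrays left out, or with the plain test of the means and adjusted p, none of the 113 passed. The difference between the lists was not tested, and the lists were written when results of these arrays were known.

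**Figure D4:**
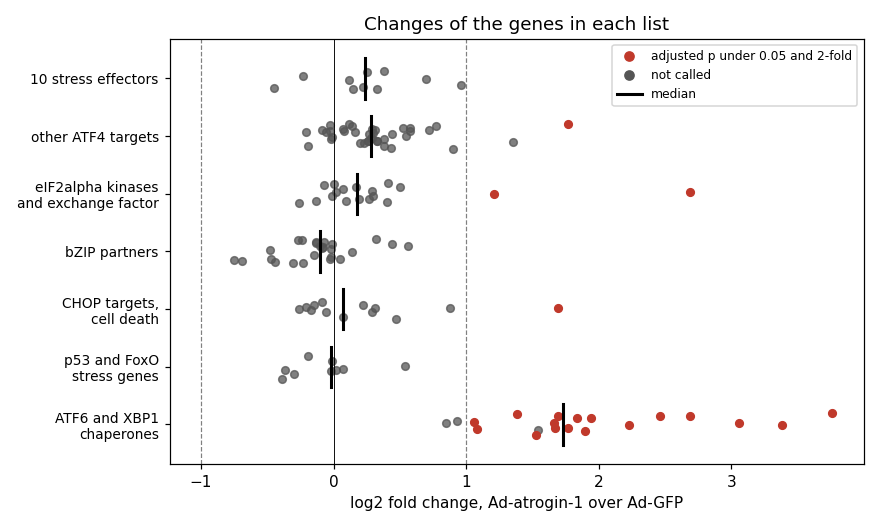
Change on the log2 scale (horizontal axis, positive where Ad-atrogin-1 is higher than Ad-GFP) of every measured gene in the 10 stress effectors and in 6 companion lists, with red points for genes called at an adjusted p under 0.05 and 2-fold, grey points for the others and black bars for medians; vertical scatter within a row has no meaning. The stress effectors and other ATF4 targets have medians of 0.24 and 0.28, the bZIP partners -0.10, and the ATF6 and XBP1 chaperones 1.73 with 17 of 20 in red.

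The genes whose 4 array values, each centred on its own mean, lay closest to those of Ddit3 were Nktr, Gclc and Ddost, at Euclidean distances of 0.050, 0.059 and 0.066 log2 units. Gclc encodes the catalytic subunit of the first enzyme of glutathione synthesis and Ddost a subunit of the oligosaccharyltransferase of the ER. Those closest to Atf4 were Mlxip, LOC102556108 and Aars1, at 0.016, 0.021 and 0.034, and Aars1, the alanyl-tRNA synthetase gene, is also on the list of ATF4 targets. With 4 arrays and 14216 other genes, some gene lies close to any profile.

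The cultures carried the messengers of heart muscle, with Tnnt2, the cardiac troponin T gene, at 13.01 and 12.81 in Ad-atrogin-1 and 12.99 and 13.05 in Ad-GFP. Other cells were also represented, with the fibroblast collagen gene Col1a1 at 11.17 and 11.61 in Ad-atrogin-1 and 10.84 and 11.50 in Ad-GFP. Among endothelial markers, Vwf was under the array medians at 3.89 to 4.20 on the 4 arrays, but Kdr was at 7.51 to 8.09 and Egfl7 at 7.09 to 7.37. Among macrophage and leukocyte markers, Ptprc was at 4.47 to 4.76, but Cd14 was at 5.58 to 7.40 and Lyz2 at 5.86 to 6.95, over the medians on every array. None of the marker genes passed the test in 5 lists, and the medians were -0.07 for macrophage and leukocyte, 0.39 for cardiomyocyte, 0.08 for smooth muscle and pericyte, 0.16 for fibroblast and 0.03 for endothelial markers. At an unadjusted p under 0.05 by limma, 3 cardiomyocyte and 2 smooth muscle markers were higher and 1 smooth muscle marker was lower, beside 6.83% and 6.52% of all genes. Unlike Tnnt2, 8 of 10 cardiomyocyte markers had a higher mean in Ad-atrogin-1. Without overlap of the groups, 6 of the 10 were higher and 1 was lower, beside 20.7% and 22.3% of all genes. For fibroblast markers 2 of 8 were higher, and for smooth muscle and pericyte markers 2 of 8 were higher and 2 lower. The other 2 lists overlapped throughout.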

How the data were processed

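Signals of 4 arrays were analysed, 2 of Ad-atrogin-1 and 2 of Ad-GFP cells. The log2 values per probe set were made by the authors with RMA in GeneSpring GX before they were deposited, and were used unchanged, with no filter on low signal. RMA makes the distributions of the arrays alike, so a shift shared by most genes would not be seen. Control probe sets (57) were left out. A reference table gave 1 gene for 20826 of 31042 probe sets, several for 436 and none for 9780. The brightest probe set stood for its gene.

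Ad-atrogin-1 was set against Ad-GFP in R 4.3.3 with limma 3.58.1 (lmFit and eBayes on all probe sets, two-sided, no block, 2 residual and 3.65 prior degrees of freedom), with Benjamini-Hochberg adjustment over 14217 genes. Genes past an adjusted p of 0.05 and 2-fold, thresholds taken from the methods of the study, were called. The script was tested on simulated data. p-values measure the spread between samples that the labels call biological replicates; the study's methods describe more independent experiments than there are arrays in a group. The number of arrays limits the precision.

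The members and gene lists were chosen with earlier results of these data known. Named are all members, up to 4 called genes per companion list by size of change or its 2 brightest, and for Atf4 and Ddit3 the 3 closest profiles. Other companion and marker genes in the text were picked after their values had been seen. Listed genes that no probe set measured alone were left out. Alternatives were other scalings, filters, priors, tests, thresholds, probe set rules, a replicate block and each array left out. Figures were drawn with matplotlib 3.10.9.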

Additional observations from a re-analysis of the deposited data

How the results depend on the processing

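No member was called higher or lower by any of the 18 alternative settings, 2-fold with no test included. Of the 180 fold changes of members under them, 4 reversed direction, all with 1 array left out, and 176 did not reverse. Among the 176, the log2 fold change of Nupr1 without Ad-atrogin-1 replicate 2 rounded to 0. Without Ad-GFP replicate 1 the log2 fold change was -0.10 for Atf3, -0.03 for Ppp1r15a and -0.16 for Nupr1, and without Ad-atrogin-1 replicate 2 it was -0.13 for Ppp1r15a. Over the 4 ways to leave out an array the ranges were -0.10 to 0.41 for Atf3, -0.13 to 0.38 for Ppp1r15a and -0.16 to 0.61 for Nupr1. The cause was not tested. For Ddit3 the log2 fold change was 0.84 to 1.07 with 1 array left out (adjusted p = 0.386 to 0.454, limma), and over all settings with an adjusted p it was 0.0474 to 0.463, the highest from the plain test of the means, which assumes equal variance in both groups. With probe sets averaged per gene the adjusted p of Ddit3 was 0.0486. For Asns the range without 1 array was 0.46 to 0.94.

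Counts over all genes moved more. Against 65 higher and 8 lower, centring gave 80 and 18, a further quantile normalization 74 and 20, unadjusted limma p 115 and 50, 2-fold alone 117 and 55, adjustment over all probe sets 43 higher, the mean of probe sets 13 lower, the plain test 0 and 0 with adjusted p (1339 genes at an unadjusted p under 0.05) and 21 lower with unadjusted p. Among the companion genes the plain test with adjusted p called 0, against 18. With any 1 array left out, limma called 0 to 1 gene higher, 0 lower and 0 companion genes, with 1263 to 1521 genes at an unadjusted p under 0.05. These fits have fewer residual degrees of freedom.

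The replicate number as a block called 1 gene higher, 0 lower and 0 companion genes, with 1842 genes at an unadjusted p under 0.05. Under it 4 members, Ddit3, Asns, Atf4 and Trib3, had an unadjusted p under 0.05 (0.00135, 0.00353, 0.0408 and 0.0495), none after adjustment. The labels do not say whether arrays of the same number share a preparation, so they were not treated as pairs. Over all probe sets the correlation of replicate 2 minus replicate 1 between the groups was 0.043.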
